A study of Homo sapiens with 6 samples.

Results

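Transcript levels of 10 glutathione S-transferase genes were examined in 2 human bladder cancer cell lines: GSTM1, GSTM2, GSTM3 and GSTM4 of the mu class, GSTP1 (pi), GSTT1 (theta), GSTO1 (omega), GSTK1 (kappa), and the membrane-bound MGST1 and MGST3. They were chosen by gene symbol, and 9 of the 10 had a row in the table of 50869 rows. GSTT1 was not matched by symbol and was not analysed here. The 6 libraries were 1 each of UM-UC-3 and 5637 cells carrying a stable lentiviral control hairpin (sh-NC) or 1 of 2 hairpins against the long noncoding RNA LNMAT1 (sh-LNMAT1#1 and sh-LNMAT1#2), and every library came from puromycin-selected cells. The medium was Dulbecco's modified Eagle's for UM-UC-3 and RPMI 1640 for 5637, so that line and medium cannot be told apart. Nothing in the labels says whether a stable line was a pool or 1 clone. The study asked which genes follow the loss of LNMAT1.

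Glutathione S-transferases join the tripeptide glutathione to electrophiles such as alkylating drugs, quinones and lipid peroxidation products, after which the conjugates are exported by ABC transporters and trimmed to mercapturates. The cytosolic classes are soluble dimers, the kappa enzyme is mitochondrial and peroxisomal, and the membrane-bound enzymes belong to the MAPEG family together with enzymes that make prostaglandin E and leukotriene C. Several of these genes are targets of NRF2, a transcription factor that binds the antioxidant response element. In people the family is best known for common whole-gene deletions of GSTM1 and GSTT1, which have been studied as susceptibility factors in bladder cancer. The genotype of neither line was measured here.

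The libraries held between 19374811 and 24706834 fragments, as worked out from the low FPKM values (fragments per kilobase of exon, scaled to the depth of the library) of single-exon genes. LINC01296, the deposited symbol of LNMAT1, went from 14.2 FPKM in the UM-UC-3 control to 6.20 and 6.70 FPKM with the 2 hairpins. The libraries labelled 5637 had 11.7 FPKM in the control, then 4.70 and 2.14 FPKM. The library labelled 5637 sh-NC went against its label. Across 12717 genes its log2 values had a Pearson's r of 0.985 with UM-UC-3 sh-LNMAT1#1 and of 0.617 and 0.622 with the other two 5637 libraries. With UM-UC-3 sh-NC and sh-LNMAT1#2 its r was 0.922 and 0.933. UM-UC-3 sh-LNMAT1#1 itself was less like these libraries of its own line (r of 0.923 and 0.932) than like the library labelled 5637 sh-NC. Of 9 epithelial and urothelial markers, 2 reached 1 FPKM in it and in each of the 3 UM-UC-3 libraries, with summed levels between 21.4 and 30.9 FPKM, whereas all 9 did so in both 5637 sh-LNMAT1 libraries, where they summed to 741 and 979 FPKM. Of these markers, EPCAM, CDH1 and KRT5 were at 0.055 FPKM or less in the UM-UC-3 libraries and the one labelled 5637 sh-NC. The 2 above 1 FPKM there were KRT8 (4.36 to 4.90 FPKM) and KRT18 (15.9 to 25.2 FPKM). Leukocyte markers at 1 FPKM or more were 1 of 4 (CD68) in these 4 libraries, while PTPRC and CD3E were listed at 0. Fibroblast markers at that level were 1 of 5 (COL1A1) in the 5637 sh-LNMAT1 libraries and 0 of 5 in the other four. Comparisons that use the library labelled 5637 sh-NC are given below with that fact, and the line comparison was made without it. UM-UC-3 sh-LNMAT1#1 was kept there under its label.

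Upstream sequences are shown for 4 genes: for GSTP1 as the highest member, for GSTO1 and GSTM3 as the pair that varied most between libraries, and for GSTM4 as the only other mu-class gene above 1 FPKM on average. Each is the 250 bases before the RefSeq transcription start in GRCh38.p14, written 5′ to 3′ on the gene's strand, with matches to TGACNNNGC (the core of the antioxidant response element) or TGANTCA (the AP-1 type element) in capitals.
GSTP1, chr11:67583562-67583811, strand +: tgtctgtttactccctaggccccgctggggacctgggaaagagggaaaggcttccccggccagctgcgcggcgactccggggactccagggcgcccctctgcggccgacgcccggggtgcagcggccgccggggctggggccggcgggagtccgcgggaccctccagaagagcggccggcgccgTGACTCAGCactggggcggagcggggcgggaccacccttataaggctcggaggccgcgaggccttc
GSTO1, chr10:104254642-104254891, strand +: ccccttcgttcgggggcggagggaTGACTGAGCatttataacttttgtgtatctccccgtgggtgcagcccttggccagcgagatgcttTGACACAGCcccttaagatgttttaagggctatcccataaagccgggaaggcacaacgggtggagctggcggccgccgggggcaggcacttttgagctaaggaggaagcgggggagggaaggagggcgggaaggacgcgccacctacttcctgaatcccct
GSTM3, chr1:109741039-109741288, strand -: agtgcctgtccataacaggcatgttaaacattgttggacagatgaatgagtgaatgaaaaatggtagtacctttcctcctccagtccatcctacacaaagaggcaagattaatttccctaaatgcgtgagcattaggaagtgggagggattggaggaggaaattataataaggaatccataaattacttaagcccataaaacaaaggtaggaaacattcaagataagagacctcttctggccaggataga
GSTM4, chr1:109655849-109656098, strand +: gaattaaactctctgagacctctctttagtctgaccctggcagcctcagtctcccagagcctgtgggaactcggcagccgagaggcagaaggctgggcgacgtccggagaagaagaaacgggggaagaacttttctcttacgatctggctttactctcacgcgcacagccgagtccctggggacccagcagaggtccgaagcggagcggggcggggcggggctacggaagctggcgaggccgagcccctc
All 9 genes with a row matched a RefSeq promoter, with 3 starts for MGST1. On either strand, TGACNNNGC lay in the window of 3 of the 9, namely GSTP1 (beginning 66 bases before the start), GSTO1 (226 and 161 bases before it) and GSTM1 (165 bases before it). The same letters occur in 10.9% of 35116 promoters of this length. In GSTP1 the match overlaps TGANTCA, which 6.57% of all promoters hold. No TGACNNNGC was found in the windows of GSTM2, GSTM3, GSTM4, GSTK1, MGST1 or MGST3. The window of GSTP1 had 28 CpG dinucleotides and 74.8% G and C, against a median of 11 CpG over all promoters. That of GSTM3 had 1 CpG and 40.0% G and C, whereas that of GSTM4 had 18 CpG.

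GSTP1 was the most abundant member in all 6 libraries. To compare genes, FPKM were rescaled to the length covered by a gene's exons, because the deposited values divide by the summed length of all annotated exons even where these overlap, by which GSTP1 is lowered 2.44-fold and MGST3 1.36-fold. On this scale GSTP1 ranged from 165 to 297 FPKM, with a median of 182. The deposited position of GSTP1 differs from that in GENCODE 29, from which the covered length was taken, so its rescaled values are approximate. The pi enzyme made up between 50.03% and 81.01% of the summed level of the 9 genes. GSTO1, whose enzyme reduces dehydroascorbate and arsenic species, followed with a median of 39.7 FPKM (24.998 to 103). MGST1, the microsomal transferase and peroxidase, had a median of 16.7 FPKM (12.3 to 35.5), and GSTK1 one of 14.9 FPKM (13.4 to 24.6). The range of MGST1 overlapped those of GSTO1 and GSTK1, which did not overlap each other. Within each library GSTO1 lay above both others, in 5637 sh-LNMAT1#1 by as little as 8.17% against 7.61% of the summed level for GSTK1, whereas MGST1 and GSTK1 changed places between libraries. GSTM3, the brain- and testis-rich mu enzyme, had a median of 10.4 FPKM and ranged from 2.79 to 15.4, overlapping both GSTK1 and MGST3 (median 4.90, 4.37 to 6.61). GSTM4 had a median of 1.86 FPKM (1.27 to 2.54) and lay below MGST3 in every library.

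Both remaining mu genes were low, and GSTM1 was close to the detection limit. GSTM2 was counted with 26, 22 and 19 fragments in the UM-UC-3 control and its sh-LNMAT1#1 and #2 libraries, and with 17, 16 and 17 in the corresponding 5637 libraries. GSTM1 was counted with 4, 3 and 2 fragments in UM-UC-3 and with 3, 1 and 2 in 5637, where 3 fragments is the limit that a count of 0 allows. Only UM-UC-3 sh-NC exceeded that limit, by 1 fragment, and no difference between libraries was detectable at this depth. Of the 50-base words in annotated GSTM1 transcripts, 49.7% also occur in another gene (37.2% in GSTM2 and 15.1% in GSTM4), against 16.0% for GSTM2, 15.5% for GSTM4 and 1.18% for GSTM3. The GSTM4, GSTM2 and GSTM1 loci also overlap as annotated on the same strand of chromosome 1 (109656081 to 109674836, 109668022 to 109709551 and 109687814 to 109709039). Their few fragments may therefore be split between copies, and their values are uncertain. Poisson intervals here cover counting error only.

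Of the members tested, GSTM3 differed most between the lines. It lies on the minus strand of chromosome 1 (109733932 to 109741038, hg38), and its deposited values in UM-UC-3 were 8.07 FPKM (control), 8.51 FPKM (sh-LNMAT1#1) and 6.11 FPKM (sh-LNMAT1#2). The library labelled 5637 sh-NC held 10.5 FPKM, whereas the 5637 sh-LNMAT1#1 and #2 libraries were at 1.90 and 2.08 FPKM. The GSTM5 locus, annotated on the plus strand (109712255 to 109775428), spans it, the strand setting of the counting is not given in the sources used here, and GSTM5 was at 0.0040 FPKM or less. The first 4 libraries, the one labelled 5637 sh-NC included, thus lay above the last pair, and the highest value was 5.50 times the lowest. How many of all genes separate in this way was not counted. With the 4 sh-LNMAT1 libraries alone, GSTM3 was lower in 5637 than in UM-UC-3 by 1.63 on the log2(FPKM + 0.5) scale (SE 0.24; limma, adjusted p = 0.0053, n = 2 per line). In this comparison the hairpins stand in for replicates of a line, and the spread includes any difference between them. The call did not hold without 5637 sh-LNMAT1#1 (-1.58, limma adjusted p = 0.117) or without 5637 sh-LNMAT1#2 (-1.68, limma adjusted p = 0.1004), which leave 1 library of that line. It was also lost without a filter on low values (limma adjusted p = 0.068).

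GSTM3 was the only 1 of 6 members tested that passed, whereas 38.5% of all 12844 genes tested did so. The median line difference of the 6 was -0.086 on the log2 scale, against -0.016 over all genes. GSTP1 (chromosome 11, 67583595 to 67586660) was at 67.5 and 77.2 FPKM in the UM-UC-3 sh-LNMAT1 libraries and at 100.5 and 122.0 FPKM in those of 5637. Its log2 difference of 0.61 (SE 0.20) missed the threshold (limma, adjusted p = 0.064). GSTK1 (chromosome 7, 143244093 to 143270854) was at 6.64 and 7.47 FPKM in UM-UC-3 and at 12.3 and 10.2 FPKM in 5637. Its log2 difference of 0.63 (SE 0.21; limma, adjusted p = 0.064) missed it as well. With UM-UC-3 sh-NC added to the fit, in which GSTP1 was at 71.5 and GSTK1 at 7.32 FPKM, both passed (limma, adjusted p = 0.031 and 0.036). GSTM4 fell short of a mean of 1 FPKM over the 4 libraries and was not tested there.

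GSTO1 (chromosome 10, 104235356 to 104267459) did not split by line alone. Its UM-UC-3 values were 24.3 FPKM in the control and 52.4 and 22.9 FPKM in the sh-LNMAT1#1 and #2 libraries. The library labelled 5637 sh-NC had 61.1 FPKM, against 15.7 and 14.9 FPKM for the 5637 sh-LNMAT1 pair. UM-UC-3 sh-LNMAT1#1 and the library labelled 5637 sh-NC were thus high, and the other two UM-UC-3 libraries lay between these and the 5637 pair. The line difference of -1.15 (SE 0.40) did not pass (limma, adjusted p = 0.074). It did with the hairpin as a covariate (limma, adjusted p = 0.019), a fit with 1 residual degree of freedom. Without UM-UC-3 sh-LNMAT1#2 the difference was -1.74, and without UM-UC-3 sh-LNMAT1#1 it shrank to -0.56. Each of these fits leaves 1 library of UM-UC-3, so that only the spread between the 5637 hairpins enters. MGST1 (chromosome 12, 16347142 to 16609259) was again highest in the same pair of libraries. Its UM-UC-3 values were 10.4, 16.3 and 8.58 FPKM in the same order. The library labelled 5637 sh-NC held 24.8 FPKM, and the 5637 sh-LNMAT1 pair 12.9 and 10.4 FPKM. Its line difference of -0.026 (SE 0.34; limma, adjusted p = 0.96) turned positive without UM-UC-3 sh-LNMAT1#1 (0.42) and without 5637 sh-LNMAT1#2 (0.12). MGST3 (chromosome 1, 165630861 to 165661796), the other microsomal member, varied least of the 7 members that passed the filter, at 3.62, 4.85 and 3.20 FPKM in UM-UC-3 and at 3.97, 3.47 and 3.57 FPKM in the libraries labelled 5637. Its line difference was -0.15 (SE 0.25; limma, adjusted p = 0.67), and the highest value was 1.51 times the lowest.

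The 3 genes whose profile over the 6 libraries lay nearest to that of GSTM3 on the centred log2 scale were ISOC1, CCNH and ABL1, with root-mean-square differences of 0.090, 0.12 and 0.12. ABL1, a tyrosine kinase, ran from 47.2 to 67.6 FPKM in UM-UC-3, with 76.9 FPKM under the label 5637 sh-NC, and was at 16.6 and 15.6 FPKM in the 5637 sh-LNMAT1 libraries. CCNH, the cyclin of the CDK-activating kinase, ran from 12.6 to 16.8 FPKM in the first 4 libraries and was at 3.68 and 4.33 FPKM in the last pair. ISOC1, an isochorismatase-domain protein, ran from 27.4 to 38.3 FPKM and was at 9.37 and 10.1 FPKM in the same pair. The points of a line share its cells, and the likeness over 6 libraries is a description.

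**Figure D1:**
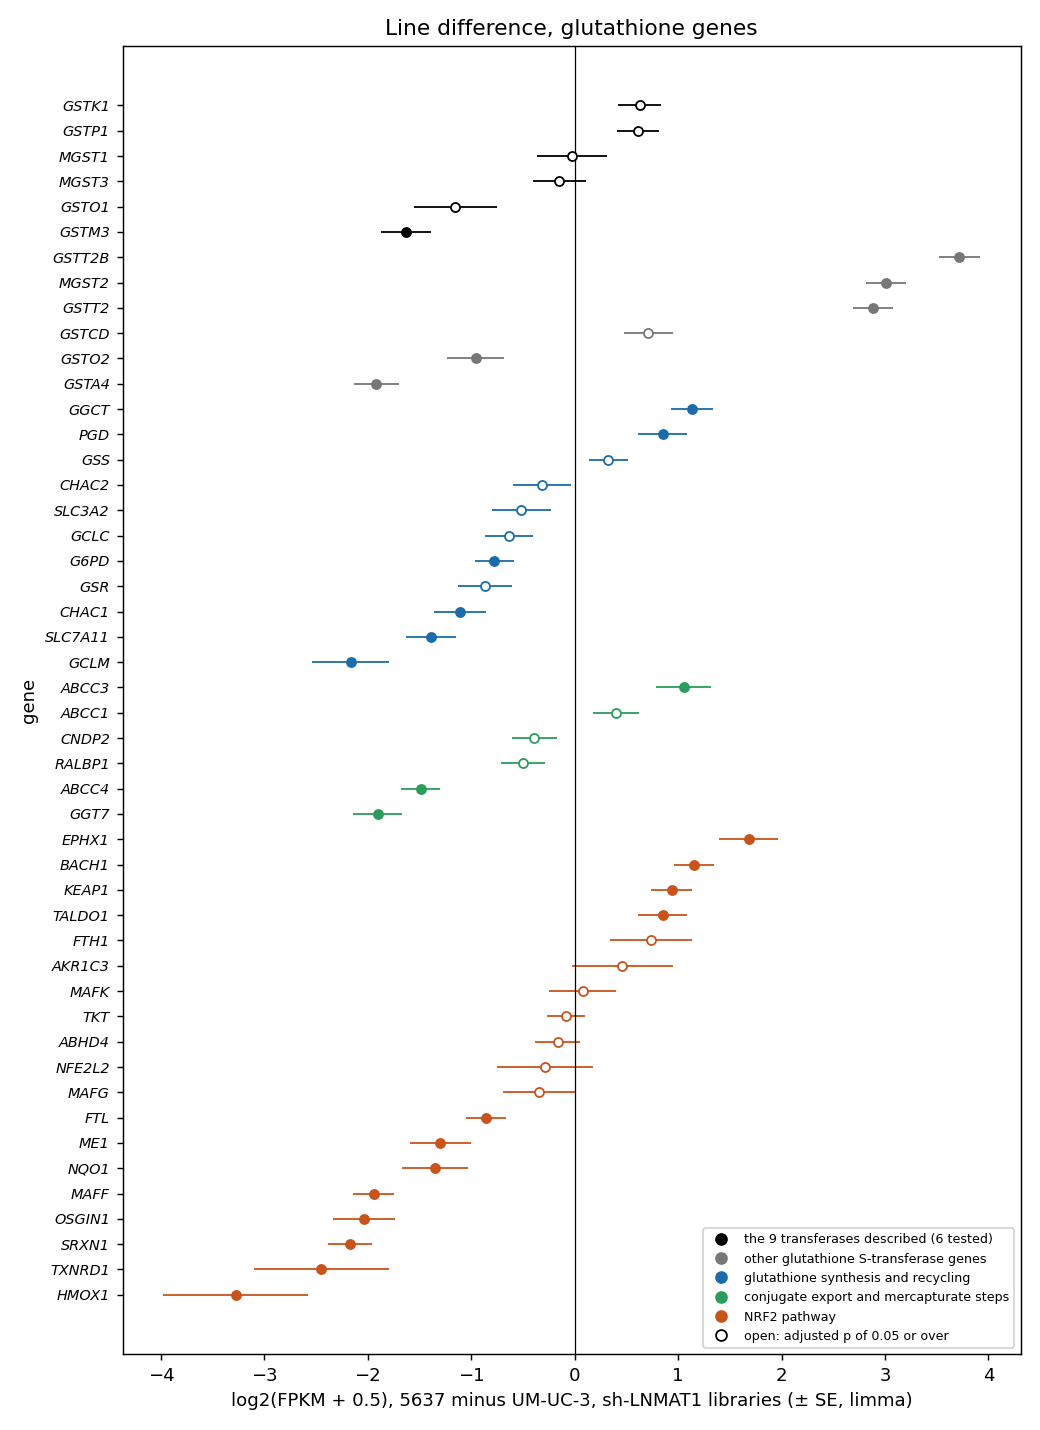
Difference of log2(FPKM + 0.5) between 5637 and UM-UC-3 (± SE, limma) over the 4 sh-LNMAT1 libraries, by gene, where closed points have an adjusted p under 0.05. Among the members GSTM3 alone is closed, at -1.63, while GSTT2B, MGST2 and GSTT2 lie at 2.89 and above and HMOX1 at -3.28.

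Larger line differences than that of GSTM3 were seen among the other transferases. Of 12 further glutathione S-transferase genes with a row, 6 were tested, of which 3 were higher and 2 lower in 5637, where 38.5% of all genes tested passed in either direction. The 3 higher ones, GSTT2B, GSTT2 and MGST2, reached the mean of 1 FPKM needed for testing only through the 5637 libraries. Their direction was thus set by the filter, and these counts are not a result about the family. GSTT2B, a theta-class enzyme, was at 6.21 and 5.96 FPKM in the 5637 sh-LNMAT1 libraries and listed at 0 in all 3 UM-UC-3 libraries. Against a limit of 3 fragments per library it was at least 74.4-fold higher in 5637. The annotated transcripts of GSTT2B share 90.9% of their 50-base words with the near-identical GSTT2, so the division between these copies is uncertain, but both were high together (GSTT2 at 3.22 and 3.17 FPKM, and listed at 0 in both UM-UC-3 sh-LNMAT1 libraries). MGST2, a microsomal enzyme that can make leukotriene C, was at 3.65 and 3.40 FPKM in 5637 and at 0 in both UM-UC-3 sh-LNMAT1 libraries, at least 109-fold higher. In the library labelled 5637 sh-NC, MGST2 and GSTT2 were listed at 0 and GSTT2B was at 0.027 FPKM.

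GSTA4, the alpha-class enzyme for 4-hydroxynonenal, went the other way. It was at 5.45, 6.50 and 6.23 FPKM in UM-UC-3. The library labelled 5637 sh-NC, at 6.96 FPKM, was alike, and the 5637 sh-LNMAT1 libraries had 1.13 and 1.52 FPKM. The line difference of -1.92 (SE 0.22) passed (limma, adjusted p = 0.0022). GSTO2, the neighbour of GSTO1 on chromosome 10, was at 1.93, 4.11 and 2.47 FPKM in UM-UC-3, at 4.50 FPKM under the label 5637 sh-NC, with 1.44 and 1.37 FPKM in the 5637 sh-LNMAT1 pair, so that its 2 high libraries were those of GSTO1. Its difference was -0.96 (SE 0.28; limma, adjusted p = 0.044). Of the 3 further MAPEG genes, PTGES, the inducible prostaglandin E synthase, was at 110 and 126 FPKM in the 5637 sh-LNMAT1 libraries and at 0.40, 0.33 and 0.26 FPKM in UM-UC-3, a log2 difference of 7.22 (SE 0.20; limma, adjusted p = 0.00015). In the library labelled 5637 sh-NC it was at 0.15 FPKM.

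**Figure D2:**
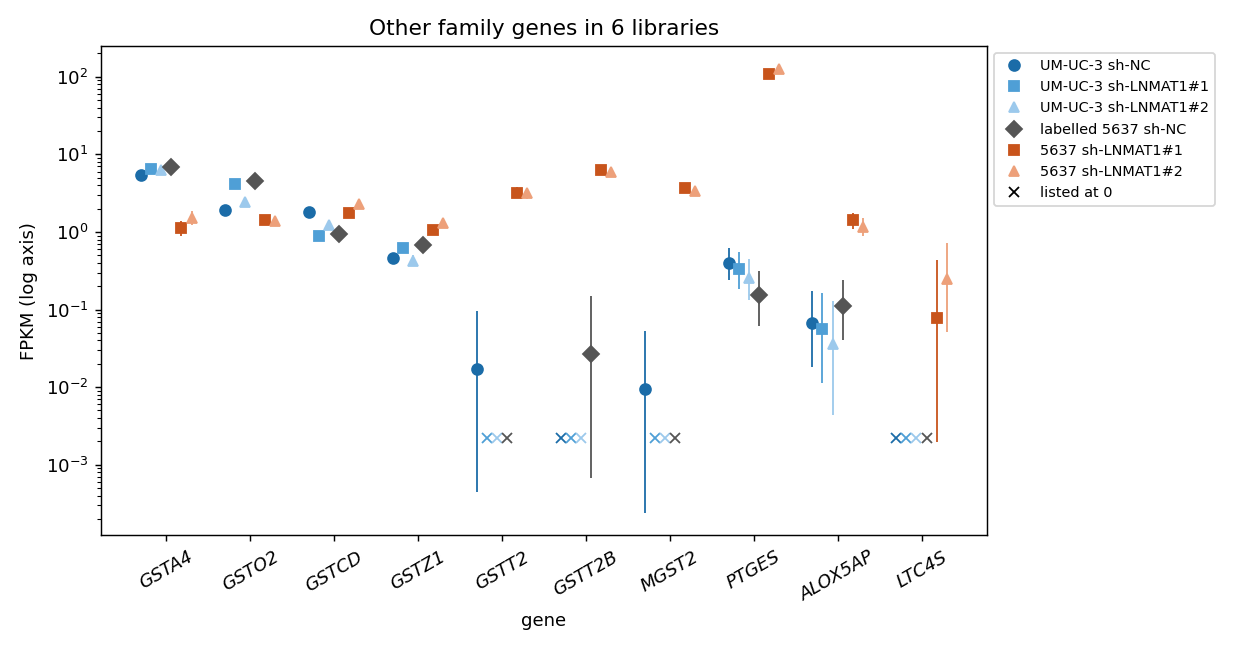
Deposited FPKM (log axis) of further transferase and MAPEG genes, 1 point per library, with bars for the 95% Poisson counting interval and crosses for values listed at 0, drawn at the foot of the axis. GSTT2, GSTT2B, MGST2 and PTGES are present in the 5637 sh-LNMAT1 libraries and at or near 0 in the other four, the library labelled 5637 sh-NC included.

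The genes that supply glutathione and carry conjugates away were then compared between the lines on the same 4 libraries. Of 11 genes of glutathione synthesis and recycling tested, 2 were higher and 4 lower in 5637, with a median log2 difference of -0.64. The share of all genes tested that passed was 38.5%, with 2588 higher and 2361 lower and a median of -0.016, and it is the background for each of the 3 lists here. GCLM, the modifier subunit of the rate-limiting ligase, was at 19.6 and 9.34 FPKM in UM-UC-3 and at 2.91 and 2.37 FPKM in 5637 (-2.16, SE 0.37; limma, adjusted p = 0.0092). SLC7A11, the cystine importer, was lower by 1.39 on the log2 scale (-1.39, SE 0.24; limma, adjusted p = 0.0092), whereas GGCT and PGD, which break down gamma-glutamyl peptides and make NADPH, were higher by 1.13 and 0.85 (limma, adjusted p = 0.010 and 0.041). For PGD this holds against the UM-UC-3 sh-LNMAT1 libraries alone (14.8 and 20.3 FPKM). The UM-UC-3 control, at 35.6 FPKM, lay above both 5637 sh-LNMAT1 libraries (28.9 and 34.5 FPKM). Of 6 genes of conjugate export and mercapturate formation, 1 was higher and 2 were lower. The lower ones were GGT7 (-1.90) and the transporter ABCC4 (-1.49), and the higher was the transporter ABCC3 (1.05), while ABCC1, the main glutathione conjugate pump, did not pass (0.40, SE 0.22; limma, adjusted p = 0.21). Of 19 NRF2 pathway rows tested, 4 were higher and 8 lower, with a median of -0.28. HMOX1, the haem oxygenase, was at 74.9 and 15.9 FPKM in UM-UC-3 and at 3.42 and 2.86 FPKM in 5637 (-3.28, SE 0.70; limma, adjusted p = 0.018), and TXNRD1, the thioredoxin reductase, at 72.9 and 18.3 FPKM against 7.74 and 5.12 FPKM (-2.45, SE 0.65; limma, adjusted p = 0.034). EPHX1, the microsomal epoxide hydrolase, and BACH1, a repressor of the antioxidant response element, were higher by 1.68 and 1.15 (limma, adjusted p = 0.0084 and 0.0087). NFE2L2, which encodes NRF2 itself, was at 7.23 and 2.74 FPKM in UM-UC-3 and at 4.50 and 2.88 FPKM in 5637, a difference of -0.28 (SE 0.46) that did not pass.

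Within UM-UC-3, no member was 2-fold higher, or 2-fold lower, under both of the hairpins. Of all 12025 genes kept in this line (mean of at least 1 FPKM), 1.44% did so, and 7 members were kept. With sh-LNMAT1#1 alone 1 of 7 passed the 2-fold limit, GSTO1 at 1.09 higher on the log2 scale (10.9% of all genes), and with sh-LNMAT1#2 alone 0 of 7 (3.51% of all genes), where GSTO1 was at -0.089. GSTM4, at 1.47, 1.08 and 1.07 FPKM, had the most even change between the hairpins, -0.31 and -0.33. MGST1 differed in sign between them (0.62 and -0.26), as did GSTM3 (0.072 and -0.37), MGST3 (0.38 and -0.15), GSTP1 (-0.082 and 0.11) and GSTK1 (-0.13 and 0.027). The medians of the 7 were 0.072 and -0.15, against -0.0041 and 0.017 over all genes. With 1 library per construct these changes have no replicate check. No kept gene of the other 5 transferase and glutathione lists passed with both hairpins in UM-UC-3.

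Against the library labelled 5637 sh-NC, GSTM3 and GSTO1 were lower with both hairpins, by more than 2-fold (GSTM3 -2.19 and -2.09, GSTO1 -1.92 and -2.003). These were 2 of 7 members, where 30.7% of all 12791 genes kept passed, and for single hairpins 2 and 3 of 7 passed against 36.8% and 35.2% of all genes. The third was MGST1, at -0.91 and -1.21. GSTP1 (0.47 and 0.75) and GSTK1 (0.74 and 0.48) were higher and under 2-fold, GSTM4, at 1.47, 0.87 and 0.73 FPKM, was lower (-0.52 and -0.68), and MGST3 changed little (-0.17 and -0.13). The medians of the 7 were -0.52 and -0.68, against 0.071 and 0.065 over all genes. In the same libraries the epithelial markers summed to 26.9 FPKM in the control and to 741 and 979 FPKM with the hairpins, so that the knockdown in 5637 and the cell background of its control cannot be told apart.

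Over all 6 libraries with the line as a covariate, 0% of 12717 genes passed in limma at an adjusted p under 0.05 (811 at an unadjusted p under 0.05), and none of the 7 members reached an unadjusted p under 0.05. GSTM3 came nearest (-1.15, SE 0.47; limma, adjusted p = 0.57). The median of the 7 was -0.44, against -0.017 over all genes. Without UM-UC-3 sh-NC, which leaves the library labelled 5637 sh-NC as the only control, GSTM3 and GSTO1 passed (-2.14 and -1.96; limma, adjusted p = 0.0057 and 0.035). Without the library labelled 5637 sh-NC, GSTM3 was at -0.15 and GSTO1 at 0.50, and neither passed. The change in 5637 minus that in UM-UC-3 passed for 18.8% of all genes and for 1 of 7 members, GSTM3 (-1.99, SE 0.41; limma, adjusted p = 0.030). GSTO1 (-2.46, SE 0.70; limma, adjusted p = 0.064) and MGST1 (-1.24, SE 0.59; limma, adjusted p = 0.19) did not pass, and the median of the 7 was -0.28, against -0.013 over all genes. This interaction also rests on the library labelled 5637 sh-NC, and it was lost for GSTM3 without 5637 sh-LNMAT1#1 or #2 (limma, adjusted p = 0.20 and 0.18).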

How the data were processed

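RNA of 6 libraries from 2 bladder cancer cell lines was sequenced by the authors from a stranded mRNA kit, and samples were grouped by the line and hairpin in their labels. The values that the authors deposited are FPKM, per gene, for all 6 libraries. The submitters' processing notes name HISAT2 and hg38, and the counting program and annotation are not given in the sources used here. 1 row without values was left out.

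The genes and lists were chosen with earlier results of these data known. Named were all members, LINC01296 and the listed genes past 2-fold with both hairpins in UM-UC-3. So were the listed genes with the 2 largest line differences in each direction per list. The 3 genes most like the member of widest range were named too, with clone-type names left out. Single cell type markers were named as a check of the labels, and GSTT2 and NFE2L2 after their values were seen. The lists of other transferases, MAPEG genes, glutathione synthesis, conjugate export and NRF2 pathway genes, and of epithelial, mesenchymal, fibroblast, leukocyte and endothelial markers, are those of the analysis plan. Of the mesenchymal markers, VIM was at 103 FPKM or more and ZEB1 at 8.67 FPKM or more in the UM-UC-3 libraries and the one labelled 5637 sh-NC, against 4.14 and 0.026 FPKM or less in the 5637 sh-LNMAT1 pair. CDH2 was at 8.18 FPKM or more in every library. FN1 went the other way, at 2.27 FPKM or less against 102 FPKM or more. The endothelial markers summed to 0.28 FPKM or less. 1 symbol of the NRF2 list has 2 rows.

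Fold changes were differences of log2(FPKM + 0.5), which understate the change of low genes, and genes averaging 1 FPKM or more were kept, and 7 members passed that filter over 6 libraries. limma 3.58.1 in R 4.3.3 (lmFit, eBayes with a trend) gave Benjamini-Hochberg adjusted p-values over all genes tested. With 1 library per group, p-values of the main line difference and interaction fits measure only the spread between hairpins within a line. No spread between control libraries enters the interaction. In the pooled fit, the spread also includes any difference of the change between the lines. On simulated data the fits were tested first.

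Depth was recovered from single-exon genes, of which 99.9% or more of values were whole fragments within 0.02. Of 1058 checked genes with several exons 98.2% came out whole with 1 length, which in 936 was the sum of all distinct exons in GENCODE 29. Words of 50 bases in GENCODE 29 transcripts served to find sequence shared between genes. Python 3.11.15, pandas 2.3.3, numpy 2.4.6, scipy 1.17.1 and matplotlib 3.10.9 were used. Count models were not applied to FPKM. Alternatives were other pseudocounts, 75th-percentile scaling, other filters, other fold limits and covariates, no trend, and leaving out each library.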

Additional observations from a re-analysis of the deposited data

Results flagged for a closer look

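The change with the hairpins differed between the lines, by the interaction test of limma over 6 libraries, for 6 transferase genes, 1 of the 7 members tested and 5 of 6 others, where 18.8% of all 12717 genes passed. All 6 rest on the library labelled 5637 sh-NC, which resembled the UM-UC-3 libraries. GSTT2B, MGST2 and GSTT2 reached the mean of 1 FPKM needed for testing only through the 5637 sh-LNMAT1 libraries, which favours such a call. GSTT2B and GSTT2 also share most of their 50-base words. The 5 of 6 is therefore not a result about the family. GSTM3 differed by -1.99 (SE 0.41; limma, adjusted p = 0.030), GSTA4 by -2.25 (SE 0.38; limma, adjusted p = 0.018) and GSTO2 by -1.99 (SE 0.48; limma, adjusted p = 0.045). GSTT2B differed by 3.65 (SE 0.33; limma, adjusted p = 0.0037), MGST2 by 3.04 (SE 0.32; limma, adjusted p = 0.0049) and GSTT2 by 2.93 (SE 0.32; limma, adjusted p = 0.0052). In each of the 6, the value of the library labelled 5637 sh-NC lay on the UM-UC-3 side of the 5637 sh-LNMAT1 libraries. Its part in these values was not tested.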

How the results depend on the processing

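Counts of members past the limit were 0 of 7 in UM-UC-3 under other pseudocounts, 75th-percentile scaling, a 1.5-fold limit and sh-LNMAT1#2 alone. By sh-LNMAT1#1 alone, 1 passed. In 5637 they stayed between 2 and 3. Of the line difference, 1 member was called, where 2588 genes were higher and 2361 lower of 12844 in all. Brackets give the same numbers for the other settings. The count was 0 without a filter (1722 and 1246 of 50868). It was 0 under a filter of 5 FPKM, which drops GSTM3 (1125 and 1200 of 6326). It was 3 with UM-UC-3 sh-NC added (2709 and 2757 of 12748) and 2 with the hairpin as a covariate (2721 and 2529 of 12844). With all 6 libraries by their labelled line it was 0 (1 and 1 of 12717). There GSTM3 was at -0.97 (limma, adjusted p = 0.40) and GSTO1 at -0.33. Leaving out 1 library leaves 1 of its line, and counts are not given for that. In the pooled fit, the count was 0, and 0 to 2 when 1 library was left out. Without a filter on low values this fit called 11 genes higher and 143 lower in all, and without UM-UC-3 sh-NC 2114 higher and 1911 lower, against 0 and 0. The interaction called 1 member, where 1270 genes were higher and 1118 lower of 12717 in all. Without a filter it called 0 members, with 1896 genes higher and 1583 lower of 50868.

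Of 317 alternatives for single members, 11 were labelled as a change of direction, all of limma values that did not pass. For fold changes from sh-NC, a change of direction was looked for only where the main value was past 2-fold. For the line difference these were MGST1 (0.12 without 5637 sh-LNMAT1#2, 0.42 without UM-UC-3 sh-LNMAT1#1, 0.034 with UM-UC-3 sh-NC added, 0.39 by labelled line) and MGST3 (0.12 without UM-UC-3 sh-LNMAT1#1). For the pooled change they were MGST3 (0.11 without 5637 sh-NC, 0.0076 without 5637 sh-LNMAT1#1, 0.075 without UM-UC-3 sh-LNMAT1#2) and, all without 5637 sh-NC, MGST1 (0.18), GSTO1 (0.50) and GSTK1 (-0.053). Over all libraries left out in turn, the line difference ran from -0.47 to 0.42 for MGST1 and from -0.41 to 0.12 for MGST3, and the pooled change from -1.06 to 0.18 for MGST1, from -0.15 to 0.11 for MGST3, from -1.96 to 0.50 for GSTO1 and from -0.053 to 0.61 for GSTK1. In 272 the direction and the side of the threshold, or the value within the spread between hairpins, were kept. Among the others, 18 fold changes moved by that spread or more, and 9 limma values came under the threshold and 7 left it. The causes were not tested. The groups share no replicate number, only the hairpin, and the hairpin covariate above is the fit that pairs the lines by it. It added GSTO1 (limma, adjusted p = 0.019) to GSTM3. Depth limits GSTM1 and GSTM2, with 26 fragments at most.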
